A study of Mus musculus with 258 samples.

Results

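The 34 genes described here are those that mark the tips of the branching embryonic pancreas and the acinar cells that form there. They were taken by symbol from the deposited count tables, where all 34 were found among 40824 listed genes. They fall into 5 transcription factors, 11 proteases, 5 lipid enzymes with their cofactor, 3 amylases and ribonucleases, and 10 granule, surface and secreted proteins. The study followed endocrine cell formation in the mouse pancreas, and 6 bulk RNA libraries and the single cells described next are used here. Bulk RNA came from Ngn3-low and Ngn3-high cells sorted from the dorsal pancreas of Ngn3-GFP embryos at E13.5 (E for embryonic day), and from nascent beta cells, labelled Ins1-RFP+, at E17.5, with 2 libraries in each group. The single cells came from the dorsal pancreas at E13.5: 44 deleted for Jmjd3 and 59 WT cells of the Ngn3-high gate, with 69 deleted and 49 WT cells of the Ngn3-low gate. Deleted embryos carried Pdx1-Cre with Jmjd3 fl/fl, so that Cre acts in cells that express Pdx1 or descend from them. Jmjd3, the product of Kdm6b, is an enzyme that removes methyl groups from histone H3. The labels name no animal, so p-values measure the spread between libraries, which may be technical, and each single-cell group counts as 1 sample without a test.

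In the developing pancreas the tips hold multipotent progenitors that express Cpa1, Ptf1a and Myc. As branching goes on the tips become restricted to acinar cells, while the trunk behind them gives rise to ducts and to the Ngn3-positive precursors of endocrine cells. Acinar genes are driven by PTF1, a complex of the basic helix-loop-helix protein PTF1A, a class A partner and either RBPJ or its acinar form RBPJL, together with the nuclear receptor NR5A2. Mature acinar cells store proenzymes in zymogen granules and release them when cholecystokinin binds its receptor.

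Bulk libraries held between 11957415 and 17760214 reads in genes, and single cells a median of 708409. The sort markers followed the labels. Neurog3, which encodes Ngn3, stood at 1191 and 1090 CPM (reads of a gene per 1e6 reads in genes) in the Ngn3-high libraries, against 193 and 161 CPM in the Ngn3-low libraries. Ins1 stood at 32616 and 22566 CPM in Ins1-RFP+ libraries 1 and 2. In single cells Kdm6b was at 107 CPM in deleted and 265 CPM in WT Ngn3-high cells, and at 55.5 CPM in deleted and 131 CPM in WT Ngn3-low cells. Ins1-RFP+ library 2 stood apart from library 1 in most of the genes described here, so the tests on Ins1-RFP+ cells are also given without it.

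The summed level of the 34 genes was lowest in Ngn3-high cells and highest, and most uneven, in Ins1-RFP+ cells. It was 919 and 830 CPM in the Ngn3-low libraries, 259 and 228 CPM in the Ngn3-high libraries, and 2541 and 42018 CPM in Ins1-RFP+ libraries 1 and 2. The groups did not overlap. These genes took 0.254% of the reads of Ins1-RFP+ library 1 and 4.20% of those of library 2. Among the 32 genes with 10 or more reads in library 1, the level in library 2 over that in library 1 had a median of 16.6, and it was 11.6 to 28.6 for 25 of them. The other 7 were Tff2 at 8.09, Gp2 at 6.05, Amy1 at 4.89, Gata4 at 4.82, Nr5a2 at 2.35, Bhlha15 at 1.59 and Vnn1 at 1.33. Fewer cells of a type and less RNA per cell cannot be told apart in bulk samples. The Ins1-RFP+ libraries differ from the E13.5 libraries in both age and sorted cell type, and these cannot be told apart either.

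**Figure D1:**
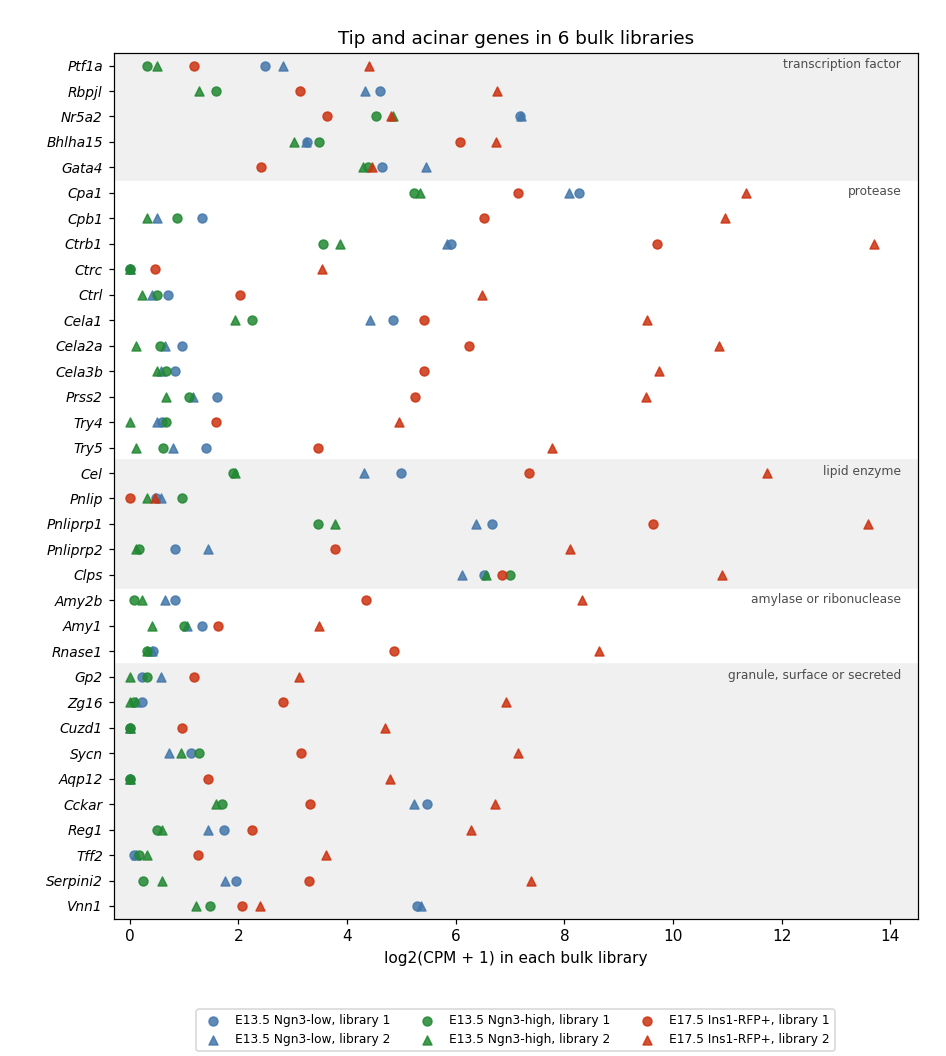
Level of each tip and acinar gene in each bulk library, as log2(CPM + 1), with genes grouped by role, colours for the groups and symbols for libraries 1 and 2. The red triangles of Ins1-RFP+ library 2 lie right of the red circles of library 1 for all 34 genes, and for Vnn1 by a ratio of only 1.33.

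Among the transcription factors, Ptf1a was at 4.62 and 6.05 CPM in the Ngn3-low libraries, 0.237 and 0.418 CPM in the Ngn3-high libraries, and 1.26 and 20.1 CPM in the Ins1-RFP+ libraries. Rbpjl, the acinar partner of PTF1A, was at 23.3 and 18.98 CPM, then 2.02 and 1.42 CPM, then 7.73 and 107 CPM in the same order of Ngn3-low, Ngn3-high and Ins1-RFP+ libraries. In both genes Ngn3-high cells were lowest, and Ins1-RFP+ libraries 1 and 2 lay on either side of the Ngn3-low level. Nr5a2 stood at 144 and 146 CPM in Ngn3-low libraries, 22.1 and 27.6 CPM in Ngn3-high, and 11.4 and 26.9 CPM in Ins1-RFP+ libraries. Gata4, a zinc finger factor of the early pancreatic epithelium, stood at 23.9 and 42.5 CPM in Ngn3-low libraries, 19.9 and 18.6 CPM in Ngn3-high, and 4.33 and 20.9 CPM in Ins1-RFP+ libraries. Nr5a2 was thus high in Ngn3-low cells alone, and the Gata4 levels of Ngn3-high and Ins1-RFP+ libraries overlapped. Bhlha15 (Mist1), which builds up the secretory apparatus of acinar cells, stood at 8.56 and 8.42 CPM in Ngn3-low libraries, 10.2 and 7.11 CPM in Ngn3-high, and 66.4 and 105 CPM in Ins1-RFP+ libraries. It was the factor that differed least between the E13.5 groups.

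The proteases split into a set already present at E13.5 and a set near 0 there. Cpa1, which encodes carboxypeptidase A1 (chromosome 6, 30639218 to 30645361, build GRCm38), was at 307 and 272 CPM in Ngn3-low libraries, 36.4 and 39.6 CPM in Ngn3-high, and 141 and 2599 CPM in Ins1-RFP+ libraries. Ctrb1, a chymotrypsinogen, was at 59.5 and 56.5 CPM in Ngn3-low libraries, 10.7 and 13.6 CPM in Ngn3-high, and 832 and 13353 CPM in Ins1-RFP+ libraries. Cela1, an elastase, was at 27.8 and 20.3 CPM in Ngn3-low libraries, 3.74 and 2.84 CPM in Ngn3-high, and 41.9 and 731 CPM in Ins1-RFP+ libraries. In these 3 genes the Ngn3-low libraries lay above both Ngn3-high libraries. Carboxypeptidase B1, encoded by Cpb1, was at 1.52 and 0.409 CPM in Ngn3-low libraries, 0.830 and 0.251 CPM in Ngn3-high, and 90.9 and 1980 CPM in Ins1-RFP+ libraries. Cela2a, another elastase, was at 0.957 and 0.573 CPM in Ngn3-low libraries, 0.474 and 0.0836 CPM in Ngn3-high, and 75.1 and 1837 CPM in Ins1-RFP+ libraries. For its relative Cela3b the values were 0.788 and 0.491 CPM in Ngn3-low libraries, 0.593 and 0.418 CPM in Ngn3-high, and 41.8 and 854 CPM in Ins1-RFP+ libraries. These enzymes stayed at or under 1.52 CPM in every E13.5 library, where 3 reads are 0.169 to 0.251 CPM.

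The trypsinogens and remaining chymotrypsin relatives were likewise low at E13.5 and higher in Ins1-RFP+ libraries. Prss2, a trypsinogen, was at 2.03 and 1.23 CPM in Ngn3-low libraries, 1.13 and 0.585 CPM in Ngn3-high, and 36.9 and 727 CPM in Ins1-RFP+ libraries. Try5 was at 1.63 and 0.736 CPM in Ngn3-low libraries, 0.534 and 0.0836 CPM in Ngn3-high, and 9.99 and 217 CPM in Ins1-RFP+ libraries. Reads of its neighbour Try4 came to 0.507 and 0.409 CPM in Ngn3-low libraries, 0.593 and 0 CPM in Ngn3-high, and 2.01 and 30.2 CPM in Ins1-RFP+ libraries. The trypsinogens are a family of near-identical copies, and how the authors' counting split reads between them is uncertain. Ctrl, a chymotrypsin-like protease, was at 0.619 and 0.327 CPM in Ngn3-low libraries, 0.415 and 0.167 CPM in Ngn3-high, and 3.08 and 87.9 CPM in Ins1-RFP+ libraries. Ctrc, chymotrypsin C, had no read in any E13.5 library and 0.377 and 10.7 CPM in the Ins1-RFP+ libraries. Against a floor of 3 reads over the group, Ctrc was at least 48.8-fold higher in Ins1-RFP+ cells than in Ngn3-high cells, and at least 3.62-fold with Ins1-RFP+ library 1 alone.

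Lipid enzymes were present at E13.5 with 2 exceptions. Pnliprp1, a relative of pancreatic lipase, was at 100.1 and 82.3 CPM in Ngn3-low libraries, 10.02 and 12.7 CPM in Ngn3-high, and 792 and 12327 CPM in Ins1-RFP+ libraries. Cel, the carboxyl ester lipase, was at 30.6 and 18.7 CPM in Ngn3-low libraries, 2.73 and 2.84 CPM in Ngn3-high, and 162 and 3384 CPM in Ins1-RFP+ libraries. Both were lower in Ngn3-high than in Ngn3-low libraries without overlap. Clps encodes colipase, the cofactor of pancreatic lipase, and took another course. It was at 90.1 and 68.1 CPM in Ngn3-low libraries, 127 and 93.2 CPM in Ngn3-high, and 115 and 1916 CPM in Ins1-RFP+ libraries, so the Ngn3-high libraries were the higher of the E13.5 libraries. Pnliprp2 was at 0.788 and 1.72 CPM in Ngn3-low libraries, 0.119 and 0.0836 CPM in Ngn3-high, and 12.6 and 272 CPM in Ins1-RFP+ libraries. Pnlip, pancreatic lipase itself, stayed at or under 0.949 CPM in all 6 libraries, with 0 and 5 reads in the Ins1-RFP+ libraries. Pancreatic lipase was the gene of the 34 that stayed under 1 CPM in both Ins1-RFP+ libraries.

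Amylase and ribonuclease genes were near the floor at E13.5. Amy2b, a pancreatic amylase, was at 0.788 and 0.573 CPM in Ngn3-low libraries, 0.0593 and 0.167 CPM in Ngn3-high, and 19.3 and 319 CPM in Ins1-RFP+ libraries. Amy1, the salivary and liver amylase, was at 1.52 and 1.06 CPM in Ngn3-low libraries, 1.01 and 0.335 CPM in Ngn3-high, and 2.07 and 10.1 CPM in Ins1-RFP+ libraries. Rnase1 was at 0.338 and 0.327 CPM in Ngn3-low libraries, 0.237 and 0.251 CPM in Ngn3-high, and 28.01 and 398 CPM in Ins1-RFP+ libraries. Amylase copies can also share reads, so the split between Amy1 and Amy2b is uncertain.

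The granule, surface and secreted genes held 2 that were clear in Ngn3-low cells. Cckar, the cholecystokinin receptor, was at 43.4 and 36.6 CPM in Ngn3-low libraries, 2.25 and 2.01 CPM in Ngn3-high, and 8.98 and 104 CPM in Ins1-RFP+ libraries. Vnn1, a pantetheinase on the cell surface, was at 38.1 and 40.2 CPM in Ngn3-low libraries, 1.78 and 1.34 CPM in Ngn3-high, and 3.20 and 4.25 CPM in Ins1-RFP+ libraries. Vnn1 was low in both Ngn3-high and Ins1-RFP+ libraries, and of the genes with enough reads it differed least between the Ins1-RFP+ libraries. Serpini2, a serine protease inhibitor of acinar cells, was at 2.87 and 2.37 CPM in Ngn3-low libraries, 0.178 and 0.502 CPM in Ngn3-high, and 8.79 and 166 CPM in Ins1-RFP+ libraries. Reg1, a secreted lectin-like protein, was at 2.31 and 1.72 CPM in Ngn3-low libraries, 0.415 and 0.502 CPM in Ngn3-high, and 3.77 and 76.3 CPM in Ins1-RFP+ libraries. Syncollin, encoded by Sycn and bound to granule membranes, was at 1.18 and 0.654 CPM in Ngn3-low libraries, 1.42 and 0.920 CPM in Ngn3-high, and 7.91 and 140 CPM in Ins1-RFP+ libraries. Serpini2 and Reg1 were thus lower in Ngn3-high than in Ngn3-low libraries, while the E13.5 levels of Sycn overlapped. Zg16, a granule lectin, was at 0.169 and 0.0818 CPM in Ngn3-low libraries, 0.0593 and 0 CPM in Ngn3-high, and 6.03 and 120 CPM in Ins1-RFP+ libraries. Tff2, a trefoil peptide, was at 0.0563 and 0.0818 CPM in Ngn3-low libraries, 0.119 and 0.251 CPM in Ngn3-high, and 1.38 and 11.2 CPM in Ins1-RFP+ libraries. Gp2, a zymogen granule membrane protein, stayed at or under 0.491 CPM at E13.5 and reached 1.26 and 7.61 CPM in the Ins1-RFP+ libraries. These 3 genes were near the floor in all E13.5 libraries. Cuzd1, another zymogen granule protein, and Aqp12, an acinar water channel, had no read at E13.5. In the Ins1-RFP+ libraries Cuzd1 was at 0.942 and 24.98 CPM. The values for Aqp12 there were 1.70 and 26.7 CPM. Against the floor over the Ngn3-high group, Cuzd1 was at least 115-fold and Aqp12 at least 126-fold higher in Ins1-RFP+ cells. With Ins1-RFP+ library 1 alone these bounds were 9.05-fold for Cuzd1 and 16.3-fold for Aqp12.

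Between the E13.5 groups, 7 of these genes passed the test. In edgeR's quasi-likelihood test over all 6 libraries with Benjamini-Hochberg adjustment over 15684 genes, 32 of the 34 genes passed the expression filter and Ctrc and Pnlip did not. Of those 32, 7 fell in Ngn3-high against Ngn3-low cells, 0 rose and 25 did not pass. Among all genes tested 30.2% fell and 27.7% rose, and 7 of 32 is no larger a share. The 32 include genes near 0 in both E13.5 groups, such as Cuzd1 and Aqp12, which passed the filter only through the Ins1-RFP+ libraries. Such genes could hardly fall, so no conclusion is drawn from the share of 7 in 32. The 7 were Ptf1a, Rbpjl, Nr5a2, Cpa1, Pnliprp1, Cckar and Vnn1. Vnn1 fell by 4.54 on the log2 scale (SE 0.24, adjusted p = 1.42e-06). Cckar fell by 4.14 (SE 1.02, adjusted p = 0.00803), and Nr5a2 by 2.47 (SE 0.31, adjusted p = 0.000217). Ptf1a stood at -3.95 on that scale (SE 1.28, adjusted p = 0.0271), Rbpjl at -3.51 (SE 1.10, adjusted p = 0.0241), Pnliprp1 at -2.93 (SE 0.98, adjusted p = 0.0319) and Cpa1 at -2.85 (SE 0.99, adjusted p = 0.0369). The median log2 fold change of the 32 genes was -1.45, against -0.0098 over all genes tested.

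That count rests on an estimate of the spread that all 3 groups share, and the Ins1-RFP+ libraries differ widely in these genes. With the 4 E13.5 libraries alone, 21 of the 34 genes passed the filter, 15 fell, 1 rose and 5 did not pass, against 33.3% of 15084 genes that fell and 28.5% that rose. The fold changes barely moved: Cpa1 stood at -2.86 (SE 0.13, edgeR adjusted p = 1.76e-08) and Cckar at -4.15 (SE 0.20, edgeR adjusted p = 2.40e-08). The 8 genes that fell in this fit alone were Gata4, Ctrb1, Cela1, Try5, Cel, Pnliprp2, Reg1 and Serpini2. Clps was the gene that rose, by 0.54 on the log2 scale (SE 0.18, edgeR adjusted p = 0.0223). The number that fell also moved when single libraries were left out of the fit over 6 libraries, which leaves 1 library in a group. Cpa1 stood at -2.84 in each fit without an Ins1-RFP+ library. Bulk Ngn3-low cells also carried markers of white blood cells: 9 listed markers summed to 18.2 and 9.12 CPM in Ngn3-high and 2483 and 2073 CPM in Ngn3-low libraries, with 2 and 3 of the 9 at 0 in the Ngn3-high libraries and none at 0 in the Ngn3-low libraries. The 8 endothelium markers summed to 9.13 and 5.85 CPM in Ngn3-high and 403 and 440 CPM in Ngn3-low libraries, with 0 and 1 at 0 in the Ngn3-high libraries. In the single cells described below, white blood cell markers summed to at most 11.3 CPM in any group, and Cpa1 was at 12.8 CPM in WT Ngn3-high and 988 CPM in WT Ngn3-low cells.

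**Figure D2:**
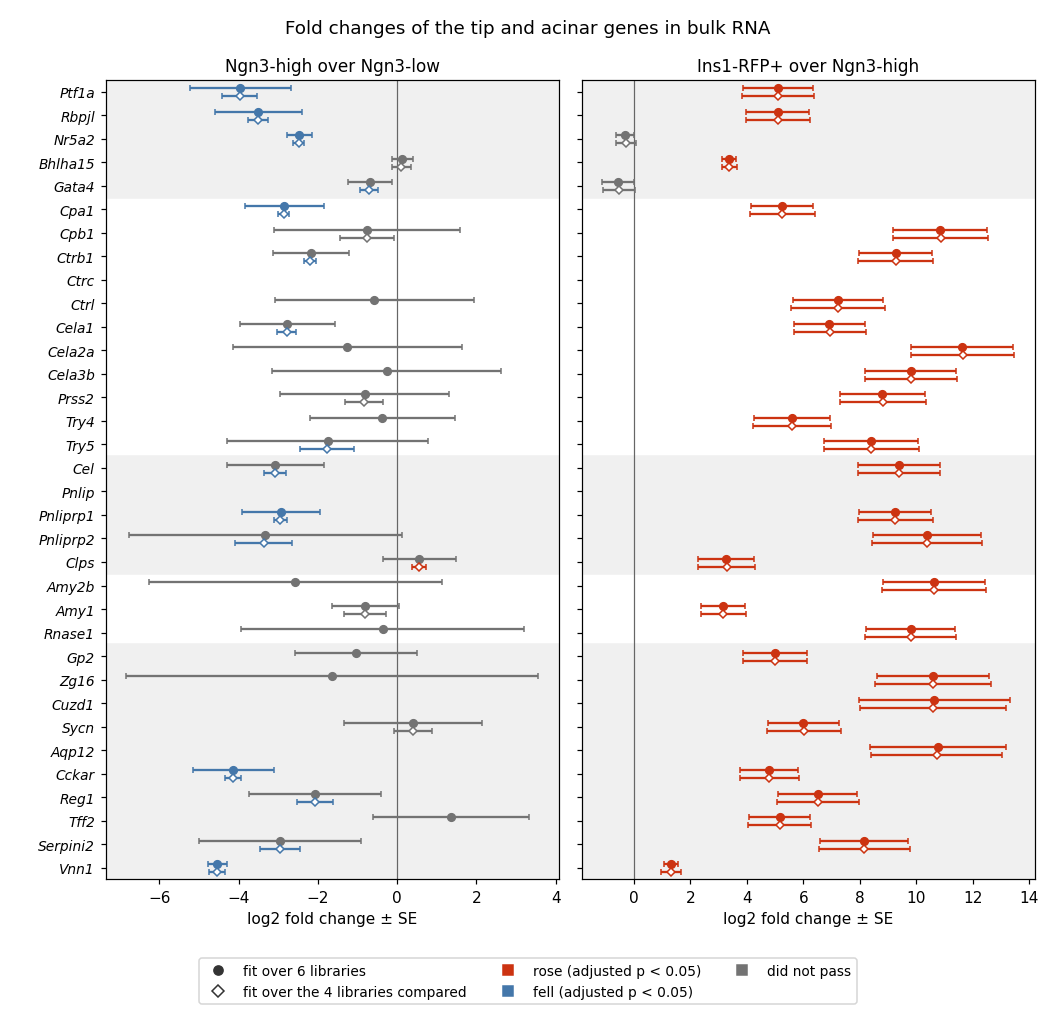
Log2 fold changes with their standard errors for Ngn3-high over Ngn3-low cells (left) and Ins1-RFP+ over Ngn3-high cells (right), from the fit over 6 libraries (filled circles) and over the 4 libraries compared (open diamonds). On the left 7 filled circles and 15 open diamonds are blue, with shorter error bars on the diamonds. On the right 30 filled circles are red. Genes at 0 in both groups or not tested have no point.

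Ins1-RFP+ cells were higher in nearly all of these genes than Ngn3-high cells. Of the 32 genes tested, 30 rose, 0 fell and Nr5a2 and Gata4 did not pass, against 26.1% of 15684 genes that rose (edgeR, as above). With the 4 E13.5 libraries alone, 21 of the 34 genes passed the filter. Ctrl, Cela2a, Cela3b, Try4, Amy2b, Rnase1, Gp2, Zg16, Cuzd1, Aqp12 and Tff2 passed only through the Ins1-RFP+ libraries, where they are high. Their rises, all among the 30, were thus largely set by the filter and are no added support. Of the genes that passed the filter at E13.5, Cpb1 rose by 10.84 on the log2 scale (SE 1.67, edgeR adjusted p = 0.00102). Ctrb1 rose by 9.26 (SE 1.28, edgeR adjusted p = 0.000574). Smaller rises were those of Bhlha15, by 3.37 (SE 0.26, edgeR adjusted p = 2.70e-05), and Vnn1, by 1.31 (SE 0.25, edgeR adjusted p = 0.00303). The median log2 fold change was 7.07, or 6.88 with Cuzd1 and Aqp12 set at their lower bounds, against 0.0076 over all genes tested. These medians include the genes that passed only through the Ins1-RFP+ libraries. With the 4 libraries of the compared groups alone, 30 rose and 0 fell, against 24.8% and 23.4% of 14749 genes. Fewer genes rose without Ngn3-high library 1 or 2, where that group is left with 1 library. Without Ins1-RFP+ library 2, 33 of the genes were tested, with 28 rises and 3 falls, against 21.9% of 16504 genes that rose and 20.1% that fell. The median log2 fold change was then 3.39, or 3.23 with Cuzd1 and Aqp12 at their bounds, against -0.0023 over all genes tested. In that fit the log2 fold changes were 7.36 for Cpb1, 6.20 for Ctrb1, 3.02 for Bhlha15 and 1.11 for Vnn1. Nr5a2 fell by 1.01 (edgeR adjusted p = 0.00144), Gata4 fell by 2.05 (edgeR adjusted p = 0.000338), and Pnlip, without a read in Ins1-RFP+ library 1, also fell (edgeR adjusted p = 0.0315). Clps at 0.15 (edgeR adjusted p = 0.608) and Amy1 at 1.64 (edgeR adjusted p = 0.0545) no longer passed. Ins1-RFP+ library 2 also had a lower sum of endocrine markers and a higher sum of mesenchyme markers. The 12 endocrine markers summed to 102365 CPM in library 1 and 71145 CPM in library 2. Most of that sum was Ins1, at 32616 and 22566 CPM, and Ins2, at 57466 and 37577 CPM. Neurod1, Isl1, Gcg and Fev were higher in library 2, and the other endocrine markers lower. The 7 mesenchyme markers summed to 182 and 688 CPM. No marker of either list was at 0 in either library, and the part of these markers in the result was not tested.

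Against Ngn3-low cells, the same Ins1-RFP+ libraries gave 25 rises and 2 falls, with 30.4% of all genes rising and 35.5% falling. The genes named above that passed the filter only through the Ins1-RFP+ libraries are all among the 25. Their rises were again largely set by the filter. The median log2 fold change, with these genes included, was 6.32, against -0.075 over all genes tested. The 2 that fell were Nr5a2, by 2.76 on the log2 scale (SE 0.32, edgeR adjusted p = 0.0001), and Vnn1, by 3.23 (SE 0.21, edgeR adjusted p = 4.18e-06). Ptf1a, Rbpjl, Gata4, Cpa1 and Cckar did not pass, and the sign of 4 of them depended on 1 library. Without Ins1-RFP+ library 2 the log2 fold changes were -1.88 for Ptf1a (edgeR adjusted p = 0.00419), -1.27 for Rbpjl (edgeR adjusted p = 0.00139), -0.85 for Cpa1 (edgeR adjusted p = 0.000725) and -1.97 for Cckar (edgeR adjusted p = 8.08e-06). In that fit 22 of 33 genes rose and 8 fell, against 27.7% and 32.3% of all genes, with a median log2 fold change of 2.89 against -0.10 over all genes. Nr5a2 then stood at -3.47 and Vnn1 at -3.42. Amy1, Gp2 and Reg1 no longer passed. Cpb1 stayed high in library 1 alone, with a log2 fold change of 6.61. With the 4 libraries of the compared groups alone, 25 rose and 2 fell, against 34.6% and 33.8% of 15331 genes. This comparison shares its Ins1-RFP+ libraries with the one before it.

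Per length, the order of the genes changed between groups. In the authors' deposited RPKM of the pooled bulk groups, Cpa1 led in Ngn3-low cells at 172, followed by Clps at 138, Ctrb1 at 61.2, Pnliprp1 at 53.4 and Nr5a2 at 36.4. Clps led in Ngn3-high cells at 206 RPKM, with Cpa1 next at 23.8. Ctrb1 led in Ins1-RFP+ cells at 7970 RPKM, followed by Pnliprp1 at 4039, Clps at 1839, Cela2a at 888 and Cpa1 at 861. Cela2a, ahead of Cpa1 in Ins1-RFP+ cells, stood at 0.70 RPKM in Ngn3-low cells. These pooled values have no replicate spread.

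Single cells showed which of these genes were on together. A cell is said here to carry a gene at 10 CPM or more. Cpa1 was carried by 3 of 44 deleted and 5 of 59 WT Ngn3-high cells, and by 25 of 69 deleted and 21 of 49 WT Ngn3-low cells. As shares these were 6.82% (exact 95% binomial interval 1.43 to 18.7) of deleted and 8.47% (2.81 to 18.7) of WT Ngn3-high cells, and 36.2% (24.99 to 48.7) of deleted and 42.9% (28.8 to 57.8) of WT Ngn3-low cells. All intervals on single cells cover counting error only. The 46 Cpa1-carrying Ngn3-low cells ranged from 14.25 to 19273 CPM Cpa1 with a median of 861 CPM, and the other 72 Ngn3-low cells stood at or under 7.22 CPM. Of all 118 Ngn3-low cells, 10 lay between 2 and 50 CPM. The summed Cpa1 level was 2773 CPM in the Cpa1-carrying and 0.533 CPM in the other Ngn3-low cells. Being cut from 1 gene, the 46 cells are a range and not a type.

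The other 33 genes were carried by the 46 cells in a graded order. Clps came first with 44 cells, then Cckar with 41, Nr5a2 with 39, Cela1 with 38, Gata4 with 34, Pnliprp1 with 31, Ptf1a with 28, Rbpjl with 27, and Ctrb1 and Reg1 with 26 each. These 10 genes were each carried by most of the 46 cells. Next came Cel with 20, Vnn1 with 15, Sycn with 14, Prss2 with 9, Serpini2 with 8 and Bhlha15 with 6. Only 1 to 4 cells carried each of Try5, Pnliprp2, Cpb1, Ctrl, Pnlip, Amy1, Cela2a, Cela3b and Gp2, a set of 9. None carried Ctrc, Try4, Amy2b, Rnase1, Zg16, Cuzd1, Aqp12 or Tff2, and 0 of 46 has an exact 95% interval up to 7.71%. Neighbours in this order had overlapping intervals: Ptf1a was at 60.9% (exact 95% interval 45.4 to 74.9) and Rbpjl at 58.7% (43.2 to 73.0). All cells are from E13.5, so the order is one of shares and not of times, and a share also depends on how abundant a gene's RNA is. Deleted and WT cells gave similar orders (Spearman's rho 0.91 across 33 genes, a description).

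**Figure D3:**
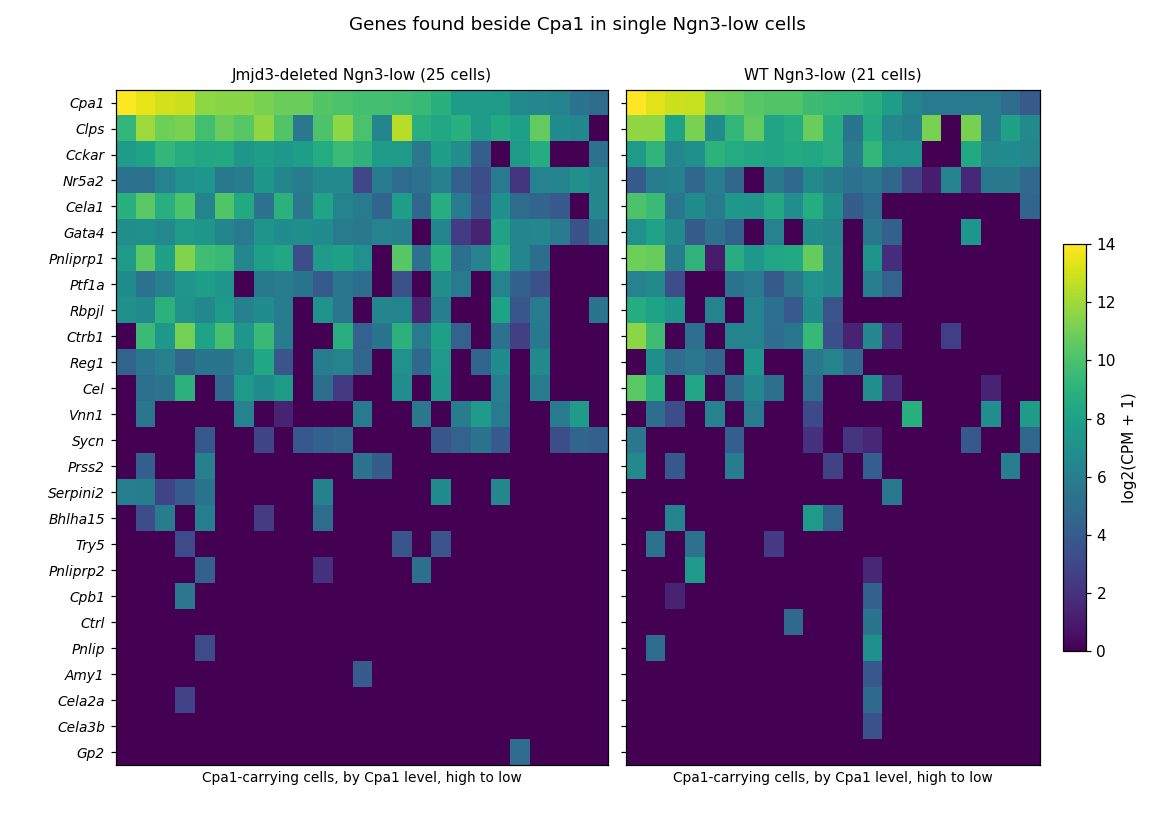
Level of Cpa1 and of the 25 other genes carried by at least 1 of the 46 Cpa1-carrying Ngn3-low cells, as log2(CPM + 1), with 25 Jmjd3-deleted cells on the left and 21 WT cells on the right, each sorted by Cpa1 level. The upper 10 genes under Cpa1 fill most columns at high Cpa1 and thin out at low Cpa1, while the lowest genes appear in a few columns.

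The number of these genes in a cell went with its Cpa1 level. In the 16 cells with most Cpa1 (1750 to 19273 CPM) a median of 11 others were carried, in the middle 15 cells (223 to 1341 CPM) 10, and in the lowest 15 cells (14.25 to 214 CPM) 5. Median reads per cell were 764442, 627977 and 653814 in the same order. Spearman's rho of the number carried was 0.65 with Cpa1 and 0.19 with reads in genes over the 46 cells, which share the denominator of reads per cell. Cela1 was carried by 16 of 16 cells with most Cpa1, 14 of 15 in the middle and 8 of 15 with least. Rbpjl was carried by 13 of 16, 10 of 15 and 4 of 15, and Cel by 11 of 16, 7 of 15 and 2 of 15. Nr5a2 changed less, with 16 of 16, 13 of 15 and 10 of 15, and Vnn1 ran the other way with 4 of 16, 3 of 15 and 8 of 15.

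Several enzyme genes and Rbpjl and Reg1 were found only in cells that carried Cela1, itself carried by 38 of the 46 cells. All 31 cells with Pnliprp1, all 27 with Rbpjl, all 26 with Ctrb1, all 26 with Reg1 and all 20 with Cel also carried Cela1. The 20 cells with Cel all carried Pnliprp1 too. Such nesting was not particular to Cela1. All 31 cells with Pnliprp1, all 28 with Ptf1a and all 15 with Vnn1 carried Clps, itself carried by 44 of the 46 cells. All 8 cells with Serpini2 carried Nr5a2, Gata4 and Ptf1a. Some other pairs were not nested in this way. Of the 15 cells with Vnn1, 6 carried Ptf1a and 5 carried Cel. Reg1 was carried by 6 of the 14 cells with Sycn and by 4 of the 9 with Prss2, and none of the 6 cells with Bhlha15 carried Vnn1. Ptf1a and Rbpjl, which encode subunits of the PTF1 complex, were carried together by 22 cells, Ptf1a alone by 6, Rbpjl alone by 5 and neither by 13. Cells with both carried a median of 4 of 17 other enzyme genes (range 2 to 6), and cells with neither a median of 1 (range 0 to 6). The median was 4 (range 0 to 11) with Ptf1a alone and 3 (range 1 to 4) with Rbpjl alone. Median Cpa1 was 1291 CPM in cells with both and 54.97 CPM in cells with neither. Cela1 was carried by 22 of 22 cells with both and 6 of 13 with neither, and Cel by 16 of 22 and 1 of 13.

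One WT Ngn3-low cell, picked out after its values were seen, carried 16 of the other 33 genes, against at most 15 in any other cell. It held 129 CPM of Pnlip, 40.2 CPM of Ctrl, 27.5 CPM of Cela2a, 19.04 CPM of Cpb1, 16.9 CPM of Prss2, 12.7 CPM of Amy1 and 10.58 CPM of Cela3b, over 472632 reads in genes. It was the only one of the 46 cells to carry Cela2a or Cela3b, which without it would have no carrier among them. Outside the 46 cells, Cela3b was carried by 2 of 103 Ngn3-high cells. Its Cpa1 was 453 CPM, its Myc 700.3 CPM and its Neurog3 0 CPM.

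**Figure D4:**
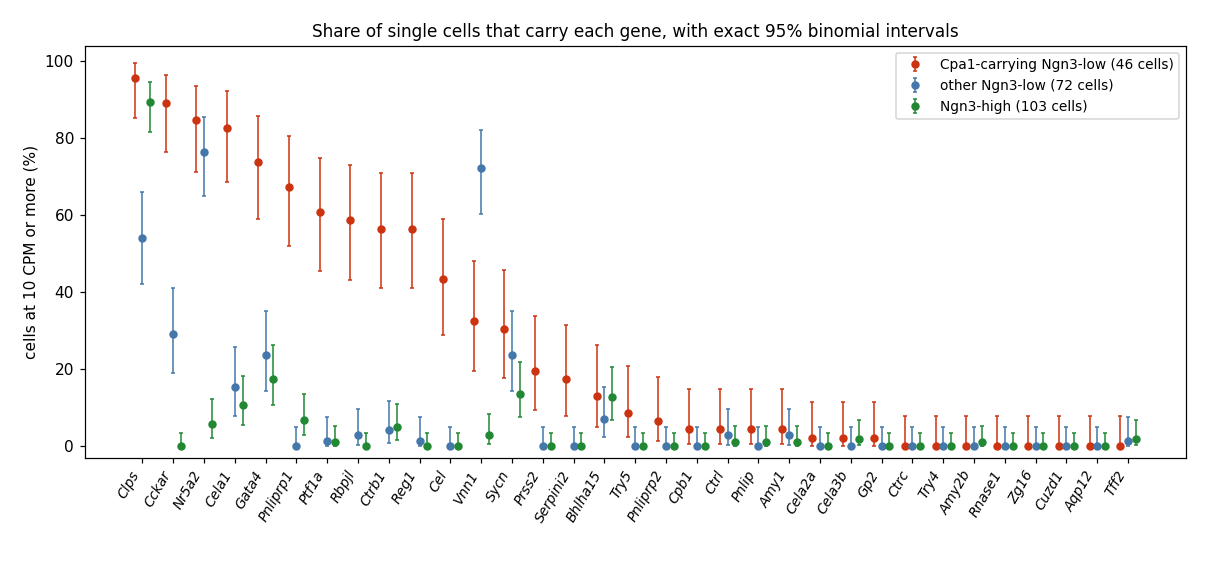
Share of cells at 10 CPM or more of each gene in 46 Cpa1-carrying Ngn3-low cells, 72 other Ngn3-low cells and 103 Ngn3-high cells, with exact 95% binomial intervals, in descending order of the first set. From Cckar to Serpini2 the intervals of Cpa1-carrying cells lie above those of both other sets, except for Nr5a2, Vnn1 and Sycn, and Clps is high in Cpa1-carrying and in Ngn3-high cells.

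Outside the Cpa1-carrying cells most of these genes were rare. Pnliprp1 was carried by 31 of 46 Cpa1-carrying cells (67.4%, interval 51.98 to 80.5), against 0 of 72 other Ngn3-low cells (up to 4.99%) and 7 of 103 Ngn3-high cells. Ptf1a was carried by 28 of 46 against 1 of 72 and 1 of 103, and Reg1 by 26 of 46 against 1 of 72 and 0 of 103. For Rbpjl the counts were 27 of 46 against 2 of 72 and 0 of 103. Cel, Prss2 and Serpini2 were found in 20, 9 and 8 of the 46 cells, and in 0 of 72 and 0 of 103. Cckar and Cela1 were less strictly divided, at 41 of 46 against 21 of 72 and 0 of 103, and 38 of 46 against 11 of 72 and 11 of 103. These shares describe cells of 4 sorted groups and were not tested, since cells are not replicates.

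Nr5a2, Sycn and Bhlha15 were carried by overlapping shares of Cpa1-carrying and other Ngn3-low cells, and Vnn1 by a smaller share of Cpa1-carrying cells. Nr5a2 was carried by 39 of 46 Cpa1-carrying and 55 of 72 other Ngn3-low cells, and by 6 of 103 Ngn3-high cells, so its carriers were spread over the Ngn3-low gate. Vnn1 was carried by 15 of 46 Cpa1-carrying cells (32.6%, interval 19.5 to 48.02) and 52 of 72 other Ngn3-low cells (72.2%, interval 60.4 to 82.1). Its summed level was 39.8 CPM in Cpa1-carrying and 111 CPM in other Ngn3-low cells, and the difference in share was seen in both genotypes, with 9 of 25 against 32 of 44 deleted and 6 of 21 against 20 of 28 WT cells. Sycn was carried by 14 of 46, 17 of 72 and 14 of 103 cells, and Bhlha15 by 6 of 46, 5 of 72 and 13 of 103.

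Clps was the gene of this list that Ngn3-high cells carried most. It was found in 44 of 46 Cpa1-carrying (95.7%, interval 85.2 to 99.5), 39 of 72 other Ngn3-low (54.2%, interval 42.004 to 65.98) and 92 of 103 Ngn3-high cells. Within the Ngn3-low gate its level thus went with Cpa1, at 1229 CPM summed over Cpa1-carrying and 125 CPM over other cells, and Spearman's rho with Cpa1 over the 46 cells was 0.56. The summed level was 757 CPM in deleted and 786 CPM in WT Ngn3-high cells, and 574 CPM in deleted and 491 CPM in WT Ngn3-low cells. Of the Ngn3-high cells, 78 of the 89 that carried Neurod1, an endocrine factor downstream of Ngn3, also carried Clps, and the median Clps level over the 89 was 238 CPM. All 14 Ngn3-high cells without Neurod1 carried Clps, with a median of 784 CPM. In Ngn3-low cells the median was 461 CPM in Cpa1-carrying and 21.7 CPM in other cells. Clps made up 89.4% of the reads of the 34 genes in deleted and 93.4% in WT Ngn3-high cells, and 23.01% in deleted and 22.9% in WT Ngn3-low cells.

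The 8 Ngn3-high cells that carried Cpa1 carried few of the other genes. They carried 3 to 6 of the 34 genes each, with Cpa1 itself counted, none carried Ptf1a and 1 carried Cela1. The 15 Cpa1-carrying Ngn3-low cells with least Cpa1 carried a median of 5 others (range 1 to 13), with Ptf1a in 4 and Cela1 in 8 of them. In the 8 Ngn3-high cells Neurog3 ranged from 71.1 to 4758 CPM. In the deleted Ngn3-high group 2 of these cells stood at 1014 and 978 CPM of Cpa1, and the 3 cells with most Cpa1 held 99.4% of that group's Cpa1 reads.

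Between gates, the level of the 34 genes summed over cells was 847 CPM in deleted Ngn3-high and 2496 CPM in deleted Ngn3-low cells, and 841 CPM in WT Ngn3-high and 2139 CPM in WT Ngn3-low cells. These are log2 ratios of -1.56 and -1.35. Without Clps, an alternative added after the data were seen, the sums were 89.9 and 1921 CPM in the deleted groups and 55.5 and 1648 CPM in the WT groups, log2 ratios of -4.40 and -4.87. The titles number the cells in sets, and within the 2 numbers that WT Ngn3-high and Ngn3-low cells share, the log2 ratio was 0.73 and 0.11, with 10 and 5 Ngn3-low cells of which 2 and 1 carried Cpa1. Within the same numbers the ratio in deleted cells was -1.68 and -1.33.

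Between genotypes, the sums were close. Ngn3-high cells had 847 CPM in the deleted and 841 CPM in the WT group, a log2 ratio of 0.0098, which took either sign among the alternatives. Ngn3-low cells had 2496 CPM in the deleted and 2139 CPM in the WT group, a log2 ratio of 0.22. It was 2.27, 0.43 and 1.11 within the 3 shared title numbers, and -0.049 and -0.28 as the mean and the median over cells. The 3 cells with most Cpa1 held 61.4% of the Cpa1 reads of deleted and 67.3% of those of WT Ngn3-low cells. In the Cpa1-carrying cells, Cela1 was carried by 24 of 25 deleted and 14 of 21 WT cells, Gata4 by 22 of 25 and 12 of 21, Pnliprp1 by 20 of 25 and 11 of 21, and Reg1 by 18 of 25 and 8 of 21. Cckar was carried by 22 of 25 and 19 of 21, and Prss2 by 4 of 25 and 5 of 21. With 1 sample per group these differences have no test, and the median reads in genes of the Cpa1-carrying cells were 729128 in the deleted and 528548 in the WT group.

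Beside the 34 genes, some single genes known from tips and acinar cells were carried more often by the Cpa1-carrying cells. The 19 listed tip progenitor partners as a set were not higher there. They summed to 2812 CPM in Cpa1-carrying and 3115 CPM in other Ngn3-low cells. Myc, a growth regulator of tip progenitors, was carried by 26 of 46 Cpa1-carrying and 10 of 72 other Ngn3-low cells, at 149 and 8.89 CPM in sum. This was 16 of 25 against 5 of 44 deleted and 10 of 21 against 5 of 28 WT cells. The trypsin inhibitor gene Spink3 was carried by 22 of 46 and 2 of 72, and Nupr1, a stress-related nuclear protein, by 21 of 46 and 0 of 72. Neurog3 was carried by 14 of 46 and 47 of 72 cells, at 12.3 and 126 CPM. This was 6 of 25 against 28 of 44 deleted and 8 of 21 against 19 of 28 WT cells. The progenitor factor Sox9 was carried by all 46 and all 72 cells, and the trunk marker Spp1 was at 3092 CPM in Cpa1-carrying and 6479 CPM in other Ngn3-low cells. The 10 trunk and duct markers summed to 4848 CPM in Cpa1-carrying cells, against 8469 CPM in the others.

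Of the 10 further pancreatic enzyme genes tested in bulk, 10 rose in Ins1-RFP+ against Ngn3-high cells, and 9 without Ins1-RFP+ library 2. Of all genes tested over the 6 libraries, 26.1% rose. Try10 reached 4.77 and 121 CPM in the Ins1-RFP+ libraries and had no read in the Ngn3-high libraries. Genes such as Try10 passed the filter only through the Ins1-RFP+ libraries, which largely set their direction. Prss1 was at 6.72 and 212 CPM in Ins1-RFP+ libraries and at most 0.167 CPM in Ngn3-high libraries. Both trypsinogens were higher in Ins1-RFP+ library 2 than in library 1. Of 17 genes of the acinar secretory machinery tested, 4 rose and 4 fell in Ngn3-high against Ngn3-low cells, where 27.7% of all genes rose and 30.2% fell. Among those that rose was Slc38a5, an amino acid transporter, at 2634 and 2410 CPM in Ngn3-high against 151 and 115 CPM in Ngn3-low libraries. Of 19 tip progenitor partners, 2 rose and 9 fell against the same background. Onecut1 fell by 4.30 on the log2 scale (SE 0.36, edgeR adjusted p = 1.87e-05), Notch2 by 3.68 (SE 0.15, edgeR adjusted p = 5.50e-07) and Myc by 3.40 (SE 0.24, edgeR adjusted p = 7.04e-06). In Ins1-RFP+ against Ngn3-high cells 11 secretory genes rose and 1 fell, and 3 tip partners rose and 10 fell, where 26.1% of all genes rose and 24.9% fell. Without Ins1-RFP+ library 2, 10 secretory genes rose and 1 fell, and 2 tip partners rose and 7 fell, where 21.9% of all genes rose and 20.1% fell.

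**Figure D5:**
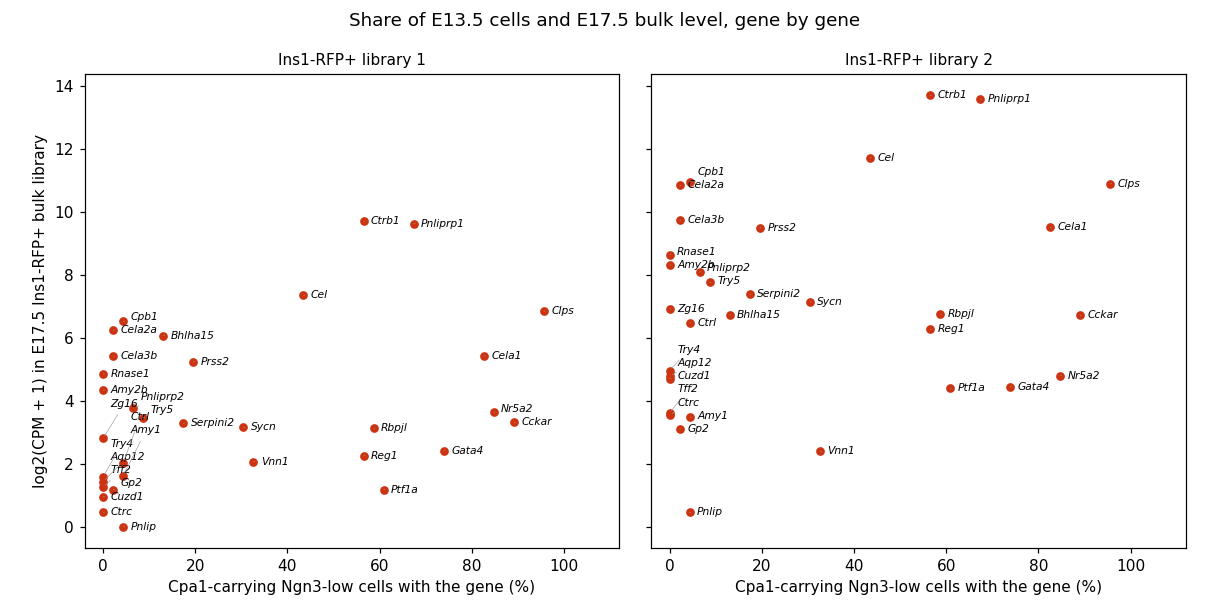
Share of the 46 Cpa1-carrying Ngn3-low cells that carried each of the 33 other genes (x axis, percent) against its level in E17.5 Ins1-RFP+ bulk libraries 1 and 2 (y axis, log2(CPM + 1)). Among genes carried by none or few cells at E13.5, Cpb1 and Cela2a reach 1980 and 1837 CPM in library 2 and Pnlip stays at 0.373 CPM, while the highest levels are those of Ctrb1 at 13353 and Pnliprp1 at 12327 CPM, carried by most of the cells.

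The share of cells that carried a gene and its level in Ins1-RFP+ cells were compared as groups of genes. The 10 genes carried by most Cpa1-carrying cells had a median of 10.2 CPM in Ins1-RFP+ library 1 and 106 CPM in library 2. The 6 genes carried by 6 to 20 cells had medians of 22.8 and 153 CPM. The 9 genes carried by 1 to 4 cells had medians of 9.99 and 217 CPM, and the 8 carried by none had medians of 1.85 and 28.4 CPM. CPM is not adjusted for gene length. In the authors' RPKM of pooled Ins1-RFP+ cells the medians were 35.6, 97.2, 90.3 and 16.5 in the same order of sets. Within the first set Ctrb1 was at 832 and 13353 CPM and Ptf1a at 1.26 and 20.1 CPM. Pooled bulk and single cells were prepared by different methods, and the plotted values share no library.

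The sequences upstream of these genes were searched for short motifs, with the share over all promoter windows beside them. Motifs were not compared by how many Cpa1-carrying cells carried a gene. RefSeq promoter windows of GRCm38.p6, from 250 bases before to 50 after the start, were given for 26 of the 34 genes, as 28 windows. Motifs were searched as letters on both strands. CACCTG is a form of the E-box, which basic helix-loop-helix proteins bind, and a further form is CAGCTG. RBPJ-type proteins bind a box with the core TTCCCA. Zinc finger factors of the GATA family bind GATAAG, and receptors of the NR5A2 type bind AAGGTCA. None of these contains another. CACCTG was in 15 of 28 windows (53.6%) and in 20.2% of all 32851 windows. TTCCCA was in 16 of 28 (57.1%) and in 25.6% of all windows, GATAAG in 13 of 28 (46.4%) and in 7.44%, CAGCTG in 5 of 28 (17.9%) and in 16.3%, and AAGGTCA in 2 of 28 (7.14%) and in 4.72%. A CACCTG or CAGCTG together with TTCCCA was in 8 of 28 windows (28.6%) and in 8.64% of all windows. A match is a run of letters and not a shown binding site.

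The 5 upstream sequences shown here read 5′ to 3′ on the gene's strand and ending at the base before the start, with matches to these motifs in capitals. Rbpjl, Cela1 and Ctrb1 were each carried by most of the Cpa1-carrying cells, Cel by 20 of the 46 and Cela2a by 1. The windows lie at chr2:164403044-164403193 on the plus strand for Rbpjl, and on the minus strand at chr15:100687921-100688070 for Cela1, chr8:111691011-111691260 for Ctrb1, chr2:28563404-28563653 for Cel and chr4:141826006-141826255 for Cela2a. For Rbpjl and Cela1 the 150 bases nearest the start are shown, which hold all their matches upstream of it, and for the others 250 bases.
Rbpjl: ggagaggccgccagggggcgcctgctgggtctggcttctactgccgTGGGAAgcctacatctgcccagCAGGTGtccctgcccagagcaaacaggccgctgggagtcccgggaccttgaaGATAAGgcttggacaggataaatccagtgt
Cela1: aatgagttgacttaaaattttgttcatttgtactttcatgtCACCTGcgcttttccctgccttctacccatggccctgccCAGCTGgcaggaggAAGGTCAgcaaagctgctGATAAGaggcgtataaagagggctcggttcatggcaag
Ctrb1: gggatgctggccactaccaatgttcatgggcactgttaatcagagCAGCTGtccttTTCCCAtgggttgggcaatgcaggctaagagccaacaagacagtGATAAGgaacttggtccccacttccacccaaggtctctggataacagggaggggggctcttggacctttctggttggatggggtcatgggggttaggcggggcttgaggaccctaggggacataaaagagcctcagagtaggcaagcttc
Cel: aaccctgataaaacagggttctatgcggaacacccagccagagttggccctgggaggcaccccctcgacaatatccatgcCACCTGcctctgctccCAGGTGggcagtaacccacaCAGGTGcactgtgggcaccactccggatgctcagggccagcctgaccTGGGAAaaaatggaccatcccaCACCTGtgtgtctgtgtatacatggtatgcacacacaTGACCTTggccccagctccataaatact
Cela2a: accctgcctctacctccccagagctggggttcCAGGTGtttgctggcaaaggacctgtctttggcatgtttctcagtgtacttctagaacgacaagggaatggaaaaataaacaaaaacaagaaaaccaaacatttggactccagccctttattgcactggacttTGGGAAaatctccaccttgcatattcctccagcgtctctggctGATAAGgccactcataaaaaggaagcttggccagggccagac
In Ctrb1 the CAGCTG match begins 205 bases before the start and the TTCCCA match 194 bases before it. In Rbpjl, TTCCCA on the other strand begins 104 bases before the start and CACCTG, also on the other strand, 82 bases before it. Cela1 has the CACCTG form at 109, the CAGCTG form at 70, the NR5A2-type box at 56 and the GATA box at 38 bases before the start. Cela2a, near 0 at E13.5, has CACCTG on the other strand at 218, TTCCCA on the other strand at 85 and the GATA box at 42 bases before the start.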

How the data were processed

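Read counts per gene were deposited by the authors for bulk and single-cell RNA, with no normalization. Per the submitters' processing notes the tools were TopHat2 2.1.0, Bowtie2, HTSeq 0.6.0 and DESeq 1.20.0 on mm10, and the strand setting of counting is not given in the sources used here. Deposited RPKM values, reads per kilobase and per 1e6 reads by the authors, were given per cell and pooled per bulk group, and served only to compare genes. Single-cell libraries covered whole transcripts without molecular identifiers. From counts, without the 92 ERCC rows, CPM was computed here. Bulk fits used edgeR 4.0.16 (TMM, filterByExpr, quasi-likelihood) on R 4.3.3 with Benjamini-Hochberg adjustment and a threshold of 0.05; limma 3.58.1 and DESeq2 1.42.0 were alternatives. The edgeR step was tested on simulated data. Poisson and Clopper-Pearson 95% intervals and ratios, with 1 CPM added, came from Python 3.11.15 with scipy 1.17.1. No doublet caller was run, and 31 chromatin samples were not used here. Replicates of each bulk group differed by more than sampling noise (chi-square per degree of freedom 12.85 to 57.9). Library numbers were not treated as pairs. All 34 genes were named, with values in every library where they reached 10 CPM in one or were carried by 5 cells. The genes and lists were chosen with earlier results of these data known. A result on 1 further gene is not reported here.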

Additional observations from a re-analysis of the deposited data

Results flagged for a closer look

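Among genes at 3 CPM or more in at least 1 gate of each genotype, the log2 ratio of Ngn3-high to Ngn3-low cells, with 1 CPM added to levels summed over cells, had opposite signs in the genotypes for 2 genes. Genes under that level, among them Tff2, Amy1 and Rnase1, were not considered. Bhlha15 had a log2 ratio of 0.34 in Jmjd3-deleted cells, with 4.37 CPM in Ngn3-high and 3.24 CPM in Ngn3-low cells. In WT cells its log2 ratio was -0.995, with 4.92 CPM in Ngn3-high and 10.8 CPM in Ngn3-low cells. Sycn had a log2 ratio of -1.48 in Jmjd3-deleted cells, with 2.70 CPM in Ngn3-high and 9.32 CPM in Ngn3-low cells. In WT cells its log2 ratio was 0.0085, with 5.61 CPM (interval 4.92 to 6.36) in Ngn3-high and 5.57 CPM (4.78 to 6.44) in Ngn3-low cells, so no direction was seen there. Each group is 1 sample, and the difference between genotypes was not tested.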

How the results depend on the processing

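For Ngn3-high over Ngn3-low cells, 0 genes rose and 7 fell; without a filter 1 rose and 18 fell, with the 4 compared libraries 1 rose and 15 fell, with limma voom 2 fell, and leaving out a library gave 0 to 1 rising and 2 to 16 falling. DESeq2 gave 6 that fell. For Ins1-RFP+ over Ngn3-high cells, limma voom gave 9 rises against 30 and no filter 1 fall against 0, and leaving out a library gave 17 to 31 rises and 0 to 3 falls. For Ins1-RFP+ over Ngn3-low cells, limma voom gave 9 rises against 25, and leaving out a library gave 22 to 30 rises and 2 to 8 falls. Without Ins1-RFP+ library 2, the log2 fold changes of Ptf1a, Rbpjl, Cpa1 and Cckar were reversed, at -1.88, -1.27, -0.85 and -1.97, and without library 1 they were 2.08, 2.49, 3.32 and 1.54. With the replicate block 0 rose and 7 fell in Ngn3-high over Ngn3-low cells, and same-numbered libraries deviated together with correlations of 0.0591, 0.0104 and 0.085, so the numbers were not taken as pairs. Shares over all genes are given above only for the fit over 6 libraries, the 4 compared libraries and the fit without Ins1-RFP+ library 2. The other counts thus show how calls moved with the setting, and no conclusion on these genes is drawn from them. The cause of these shifts was not tested. Single genes kept their side of the threshold, and their direction where either fit passed, in 344 of 405 alternatives for Ngn3-high over Ngn3-low. The counts were 363 of 416 for Ins1-RFP+ over Ngn3-high and 379 of 416 for Ins1-RFP+ over Ngn3-low cells. Genes that passed in neither fit could change sign and still be in these counts.

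Counts of Cpa1-carrying cells moved with the rule. With Ptf1a in place of Cpa1 there were 0 deleted and 1 WT Ngn3-high and 11 WT Ngn3-low cells, with 3 or more of the 34 genes 9, 16, 55 and 35 cells (deleted and WT Ngn3-high, deleted and WT Ngn3-low), and at 1 CPM 13 WT Ngn3-high and 35 deleted Ngn3-low cells. The number of genes carried by most cells was 10, and 6 at 50 CPM, 6 with cells chosen by 3 other genes and 6 in WT cells alone. The log2 ratio of summed levels, given as mean over cells, median over cells and without the highest cell, was -1.44, -0.65 and -1.65 for deleted Ngn3-high over deleted Ngn3-low cells, -1.58, -0.14 and -1.17 for WT Ngn3-high over WT Ngn3-low cells, 0.091, -0.78 and -0.22 for deleted over WT Ngn3-high cells, and -0.049, -0.28 and 0.26 for deleted over WT Ngn3-low cells. Within title numbers it was -1.68 and -1.33, then 0.73 and 0.11, then -0.14, -0.33 and 0.77, then 2.27, 0.43 and 1.11, in the same order of comparisons. Without Clps, chosen after seeing the data, it was -4.40, -4.87 and 0.69 for the first 3 of them. Genes near the floor of 3 reads are limited by depth.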

Other observations

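Gatm, an enzyme of creatine synthesis and 1 of 18 listed genes of the acinar secretory machinery, differed between bulk and single Ngn3-low cells. It stood at 161 and 134 CPM in the bulk Ngn3-low libraries, and at 5.64 CPM in deleted and 4.18 CPM in WT single Ngn3-low cells. Of the single Ngn3-low cells it was carried by 9 of 46 with Cpa1 and 3 of 72 others.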
